A study of Mus musculus with 2 samples.

Results

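The genes described here are 34 members of the p53 pathway, most of them genes that the transcription factor p53 is known to switch on, together with p53 itself (Trp53). They were taken by symbol from the 31053 genes counted in each library, and each symbol matched 1 gene. Single-cell RNA was counted in kidney cortex of mice at 16 weeks. The PT I-PpoI group (1 library) came from mice that, per the series title, express the homing endonuclease I-PpoI in proximal tubule (PT) epithelium, and the wild-type group (1 library) carried only that name. I-PpoI cuts both DNA strands at a long recognition site found in ribosomal DNA and at few other places. The promoter or Cre line that drives it, the age at which it is switched on, the sex of the animals and whether animals were pooled are not given in the sources used here. The gene list holds 0 features for I-PpoI or Cre, so the label was not checked against the transgene.

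DNA double-strand breaks are sensed by the kinase ATM and its partners, which stabilise p53 and release it from its inhibitor Mdm2. p53 then binds paired copies of a short half-site near its targets and raises genes that halt the cell cycle, repair DNA, supply nucleotides, limit metabolism or trigger apoptosis. In the kidney, the arrest gene Cdkn1a (p21) is a widely used readout of tubular DNA damage. Many of these genes also answer to other signals: Btg2, Plk2 and Plk3 are immediate early genes of tissue dissociation and growth factors, and Cdkn1a, Sesn2 and Ddit4l respond to several stresses.

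Over all barcodes, 93257620 transcripts tagged by unique molecular identifiers (UMIs) were counted for PT I-PpoI, against 107977310 for wild type. After filtering, 5086 PT I-PpoI and 11927 wild-type cells remained, with a median of 11186 and 2701 UMIs per cell, and 22 barcodes occurred in both. Cells were clustered without the members and named by markers, so each class name below stands for cells like that type, and 13 classes had 50 or more cells in each library. PT-like cells made up 166 of the PT I-PpoI cells (3.26%) and 4752 of the wild-type cells (39.8%), with median depths of 10998 and 4434 UMIs. Each of their 8 clusters had 12 or more of 25 PT markers detected, and a further 1131 shallow wild-type cells nearest to PT stayed unnamed. Free RNA was estimated from markers of other lineages, taking for each class and library the marker set that gave the lowest value. It came to 9.52% of PT-like UMIs in PT I-PpoI against 24.9% in wild type, and between 4.41% and 20.8% (PT I-PpoI), against 9.05% and 32.0% (wild type), in the other compared classes. For PT-like cells the set was that of thick ascending limb in PT I-PpoI but that of macrophages in wild type. These values, and the shares of member UMIs drawn from them, are therefore not like for like. The estimate depends on the marker set, and the highest for PT-like cells was 57.0% in PT I-PpoI, against 59.3% in wild type.

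Levels are given in CPM, a member's UMIs summed over the cells of one class and library and scaled to a total of 1000000. A ratio divides the PT I-PpoI level by the wild-type level, is given as log2, and has 0.5 added to the UMI count of each library. Since the libraries differ in total, the ratio can lie slightly above or below the quotient of the printed CPM. A member was compared in a class where its mean level would give 10 or more UMIs in the library with fewer UMIs of that class, and is called higher or lower where its CPM, without the prior, differed by 2-fold or more. Each group had 1 library, so the groups could not be tested against each other. Intervals of levels, ratios and shares are 95% intervals for counting error only, while those of member medians are rank intervals over the members. The difference between the groups cannot be told apart from that between 2 animals, digestions or libraries. CPM from 3′ tags were compared across classes within a gene, not between genes.

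In PT-like cells 6 of 25 compared members were higher in PT I-PpoI and 0 were lower. They were the kinase Plk3, the mTOR inhibitor Ddit4l, the antiproliferative gene Btg2, the apoptosis gene Pmaip1 (Noxa), the p53 cofactor Trp53inp1 and the stress gene Sesn1. That is 24% of the compared members, against 7.39% of all 9144 genes compared in this class for higher and 3.04% for lower. The median member ratio was 0.28 (rank interval 0.11 to 0.94), beside 0.26 over all genes compared, and 19 of 25 ratios lay above 0. TMM scaling (trimmed mean of M-values) shifted every PT ratio by -0.34, which put the all-gene median at -0.08 and the member median at -0.06. With it, 12 of 25 ratios lay above 0. The calls were then 5 higher, without Sesn1, and 2 lower, Dglucy (-1.09) and Rrm2b (-1.02). The share of all genes called after TMM scaling was not worked out in this or any other class, so counts after scaling have no background beside them.

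**Figure D1:**
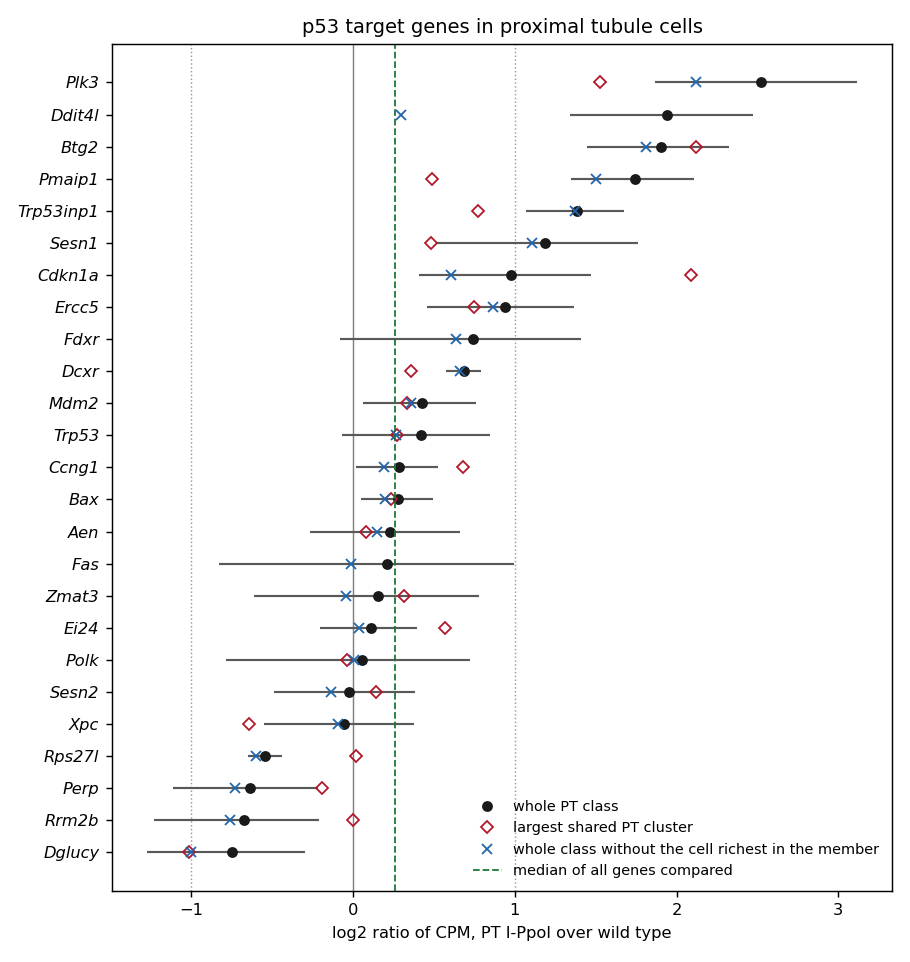
Log2 ratio of CPM, PT I-PpoI over wild type, of the 25 members compared in PT-like cells (1 library per group). Filled points are the whole class with 95% counting intervals and red diamonds the largest cluster shared by both libraries. Blue crosses are the class without the cell of each library richest in the member. Dotted lines are the 2-fold limits and the dashed line the all-gene median of 0.26. Plk3 stands furthest right at 2.52, Ddit4l moves to 0.30 without those cells, and Cdkn1a is at 2.09 in the shared cluster. That Cdkn1a value rests on 21 UMIs in PT I-PpoI against 31 in wild type, and the share of 1 cell in it was not worked out.

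The 2 libraries differed in which PT-like cells they held. In PT I-PpoI, 96 of 166 cells (57.8%) fell in 1 cluster whose leading genes include Slc5a12, Slc6a19 and Slc5a2, carriers of the early proximal tubule, against 716 of 4752 wild-type cells (15.1%). In that shared cluster 3 of 22 compared members were higher (Btg2, Cdkn1a, Plk3) and 1 was lower (Dglucy), beside 2.67% and 0.975% of all genes compared there, and the member median was 0.33 (0.02 to 0.68). With wild-type clusters weighted to the make-up of PT I-PpoI, 4 of 25 members were 2-fold or more higher (Ddit4l, Btg2, Plk3 and, at 1.21, Cdkn1a) and 0 lower, beside 3.17% and 0.612% of all genes. The weighting leaves the PT I-PpoI counts as they are. In the unweighted class without the richest cell of each library, Ddit4l was at 0.30 and Cdkn1a at 0.61. With libraries clustered separately, which put 213 PT I-PpoI and 5860 wild-type cells in the class, 11 of 29 compared members were higher, beside 15.6% of all genes compared. With cells thinned to 2000 UMIs 1 of 7 compared members was higher (Trp53inp1), beside 9.27% of all genes compared.

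Among the arrest and antiproliferative genes, Plk3, a Polo-like kinase of stress signalling, had 31 UMIs (15.4 CPM) in PT I-PpoI PT-like cells and 87 UMIs (2.70 CPM) in wild-type ones. Its ratio was 2.52 (1.87 to 3.11), with 1.53 in the shared cluster and 2.12 without the richest cell of each library. Btg2, a transcriptional corepressor of proliferation, had 55 UMIs (27.3 CPM) against 236 (7.33 CPM), a ratio of 1.91 (1.44 to 2.32) and of 2.12 in the shared cluster. Both stayed 2-fold or more higher in the alternatives that compared them, apart from the subtraction of free RNA for Btg2. There the estimate comes to 56.2% of the PT I-PpoI and 100% of the wild-type Btg2 UMIs in PT-like cells, so no ratio can be set on what remains.

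Cdkn1a, the inhibitor of cyclin-dependent kinases, stood just under the 2-fold limit in the whole class. It had 35 UMIs (17.4 CPM, interval 12.1 to 24.1) in PT I-PpoI against 287 UMIs (8.92 CPM, 7.92 to 10.0) in wild type, a ratio of 0.98 (0.41 to 1.47). After TMM scaling the ratio was 0.63. The 35 UMIs lay in 14 of 166 cells, 10 of them in 1 cell. Without the richest cell of each library the ratio was 0.61. In the shared cluster, by contrast, 21 UMIs (17.4 CPM) in PT I-PpoI stood against 31 UMIs (4.13 CPM) in wild type, a ratio of 2.09. The difference was under 2-fold in the PT-like cluster of 37 PT I-PpoI cells. Cdkn1a had 26.9 CPM there in PT I-PpoI against 15.7 CPM in wild type (12 and 50 UMIs). The cell with 10 UMIs lay in either the shared cluster or this cluster, since no other PT-like cluster held more than 1 PT I-PpoI UMI. Which of them held it was not worked out, so 1 cell may hold much of the 21 or of the 12 UMIs. Ccng1 (cyclin G1) had 68.4 CPM in PT I-PpoI against 56.5 CPM in wild type (ratio 0.28, and -0.06 after TMM scaling). Zmat3, an RNA-binding regulator of splicing, had 9.92 and 9.10 CPM (0.16).

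Of the genes that control p53, Trp53inp1, which promotes p53-dependent death and autophagy, was higher in PT I-PpoI with 107 UMIs (53.1 CPM) against 656 (20.4 CPM) in wild type. Its ratio of 1.39 (1.07 to 1.68) was not carried by 1 cell, being 1.37 without the richest cell of each library. It was 0.77 in the shared cluster and 0.91 with wild-type clusters weighted. In the PT-like cluster of 37 PT I-PpoI cells, Trp53inp1 had 69.6 CPM in PT I-PpoI against 22.9 CPM in wild type (31 and 73 UMIs). Mdm2, the ubiquitin ligase that p53 induces and that degrades it, had 37.2 CPM in PT I-PpoI against 27.8 CPM in wild type (0.43, 0.06 to 0.76, and 0.09 after TMM scaling). Trp53 itself had 22.3 and 16.8 CPM (0.42, -0.07 to 0.85, and 0.08 after TMM scaling).

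Of the 11 apoptosis and death receptor genes, 6 were compared and only Pmaip1, a BH3-only protein that disables Mcl1, was called. It had 71 UMIs (35.2 CPM) in PT I-PpoI against 340 (10.6 CPM) in wild type, a ratio of 1.75 (1.35 to 2.11). The ratio was under 2-fold in the shared cluster (0.49, with 37.4 and 26.8 CPM) and with wild-type clusters weighted (0.77). In the PT-like cluster of 37 PT I-PpoI cells, Pmaip1 had 51.6 CPM in PT I-PpoI against 18.2 CPM in wild type (23 and 58 UMIs). The part of cell make-up in the Pmaip1 values was not tested. Bax, which permeabilises mitochondria, had 89.3 CPM in PT I-PpoI against 73.8 CPM in wild type (0.28, and -0.07 after TMM scaling). The nuclease Aen (0.23), the receptor Fas (0.21) and Ei24 (0.11) lay close to 0 and below it after TMM scaling. The junction protein Perp was at -0.63 (-1.11 to -0.22), but at -0.19 in the shared cluster and -0.16 with wild-type clusters weighted.

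None of the 4 compared genes of DNA repair and nucleotide supply was called in PT-like cells. The endonuclease Ercc5 had 23.3 CPM in PT I-PpoI against 12.3 CPM in wild type, a ratio of 0.94 (0.46 to 1.36), close under the limit. That ratio was 0.75 in the shared cluster, 0.73 with wild-type clusters weighted and 0.59 after TMM scaling. The bypass polymerase Polk was at 0.06 and the damage sensor Xpc at -0.05. Rrm2b, the p53-inducible subunit of ribonucleotide reductase, had 17.4 CPM in PT I-PpoI against 28.1 CPM in wild type (-0.67, -1.23 to -0.21), but 0.00 in the shared cluster.

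Among stress and metabolic members, Ddit4l, which restrains mTORC1, had 34 UMIs (16.9 CPM) in PT I-PpoI against 143 UMIs (4.44 CPM) in wild type, a ratio of 1.94 (1.34 to 2.47). Of the 34 UMIs, 24 came from 1 cell. Without the richest cell of each library the ratio was 0.30, and as a mean over cells it was 0.66. The free RNA estimate comes to 30.5% of its UMIs in PT I-PpoI, against 100% in wild type, so no ratio can be set after subtraction. Sesn1, a stress-induced inhibitor of mTORC1, had 12.9 CPM in PT I-PpoI against 5.75 CPM in wild type (1.19, 0.51 to 1.76), and 0.48 in the shared cluster, 0.72 with wild-type clusters weighted and 0.84 after TMM scaling. Its relative Sesn2 was at -0.02. Dcxr, a sugar and carbonyl reductase, had 374 CPM in PT I-PpoI against 233 CPM in wild type (0.69, 0.57 to 0.79). Its ratio was 0.36 in the shared cluster, 0.38 with wild-type clusters weighted and 0.34 after TMM scaling. Fdxr, the mitochondrial ferredoxin reductase, had 8.93 and 5.47 CPM (0.74, -0.08 to 1.41).

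Both Dglucy, a mitochondrial D-glutamate cyclase, and the ribosomal protein paralogue Rps27l were lower in PT I-PpoI by less than 2-fold. Dglucy had 18.8 CPM in PT I-PpoI against 31.9 CPM in wild type (-0.74, -1.27 to -0.29). It was at -1.01 in the shared cluster (8 and 106 UMIs), but at 0.00 with wild-type clusters weighted (18.8 and 19.1 CPM). Rps27l had 376 CPM in PT I-PpoI against 548 CPM in wild type (-0.54, -0.65 to -0.44) but 0.02 in the shared cluster. Reads of Rps27l and its close paralogue Rps27 may be hard to separate in 3′ counting. The other 9 members were under the minimum in this class, namely Ak1 (11 UMIs in PT I-PpoI against 17 in wild type), Epha2 (8 and 35), Ddb2 (7 and 75), Plk2 (6 and 80), Apaf1 (5 and 65), Phlda3 (4 and 35), Bbc3 and Tnfrsf10b (3 and 19 each) and Eda2r (0 and 6).

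**Figure D2:**
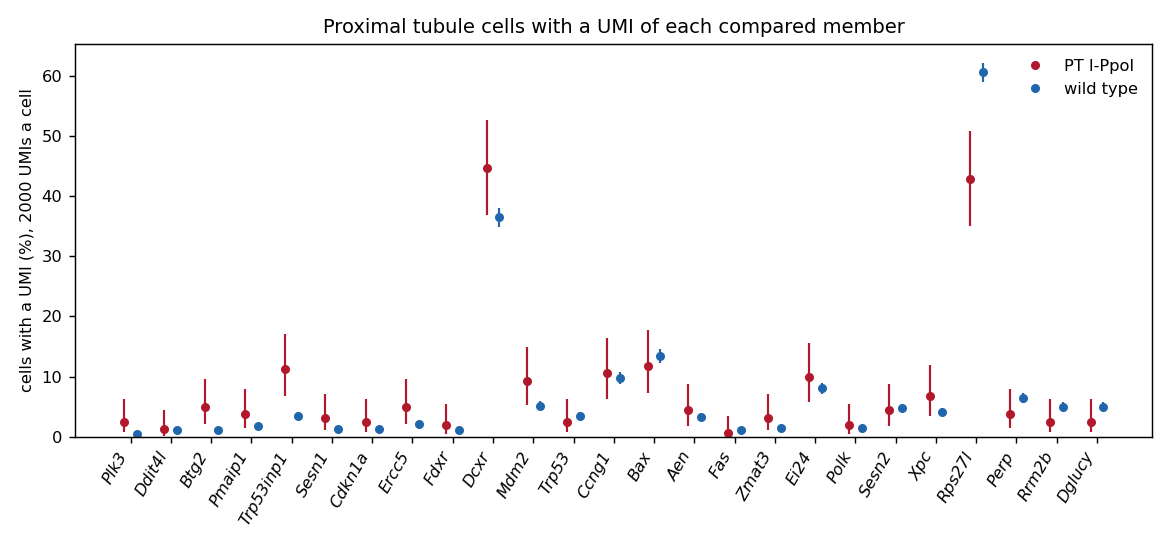
Percent of PT-like cells with a UMI of each compared member after thinning every cell to 2000 UMIs (161 PT I-PpoI cells in red, 3569 wild-type cells in blue), with exact 95% binomial intervals. Trp53inp1 and Btg2 have intervals that do not overlap with PT I-PpoI above, and Rps27l has them with PT I-PpoI below. Such intervals were not worked out for all genes, so they describe these single members and not the set.

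Shares of cells were compared after thinning each cell to 2000 UMIs, which kept 161 PT I-PpoI and 3569 wild-type PT-like cells. Trp53inp1 was read in 11.2% of PT I-PpoI cells (Clopper-Pearson 6.76% to 17.1%) and 3.50% of wild-type cells (2.92% to 4.16%), and unthinned in 40.4% and 11.4%. For scale, macrophage-like cells had its lowest CPM of the compared classes in both libraries. At that depth Trp53inp1 was read in 0.820% of PT I-PpoI and 1.21% of wild-type cells of that class. Btg2 was read in 4.97% (2.17% to 9.56%) of PT I-PpoI and 1.15% (0.826% to 1.56%) of wild-type cells, the lowest shares of any compared class. The shares of Cdkn1a, 2.48% (0.681% to 6.24%) in PT I-PpoI against 1.29% (0.945% to 1.72%) in wild type, could not be separated at this depth, nor could those of Mdm2, 9.32% (5.31% to 14.9%) and 5.10% (4.40% to 5.87%). No kidney class is known to lack these genes, so free RNA has no clean reference class here.

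Of the called PT genes, Btg2 and Plk3 are also known as immediate early genes. A list of other immediate early and dissociation genes, which holds neither and includes heat-shock chaperones, was read beside them. In PT-like cells 13 of 18 compared genes of that list were higher in PT I-PpoI and 0 lower, with a median ratio of 1.62 and a summed level of 1741 CPM against 504 CPM in wild type. They were led by the transcription factor Klf4 (3.94), the chaperones Hspa1a (2.79) and Hspa1b (2.70) and the GTPase Rhob (2.56). Their part in the values of Btg2 and Plk3 was not tested. Of the kinases, sensors and regulators upstream of p53, 0 of 20 compared genes were called in either direction. Their median was 0.33. Furthest from 0 were Mre11a (0.95) and Rad50 (0.85), proteins that bind broken ends, Trp53bp1 (0.78) and the p53 inhibitor Mdm4 (0.77). Of 10 compared other p53 targets, 2 were higher, the stress sensor Gadd45a (1.63, 33.2 CPM in PT I-PpoI against 10.8 CPM in wild type) and Ier5 (1.45). The cytokine Gdf15 was at 0.81 (30.8 and 17.7 CPM) and Trim7 at -0.77.

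RefSeq promoter windows (GRCm38.p6, 250 bases before to 50 after a start) were searched for the p53 half-site, a motif of 10 bases that reads the same on both strands. A window was found for 26 of 34 members (36 windows). The half-site occurred in 12 of those windows, belonging to 11 members, and in 8.36% of all 32851 windows. A full site, a pair of half-sites up to 13 bases apart, occurred in 0.0731% of all windows and among members only in Cdkn1a. Shown are 6 of the 11 members, chosen with their values known: Ddit4l and Sesn1, which were called in PT-like cells, and the widely studied targets Cdkn1a, Ccng1, Mdm2 and Bax. Capitals mark the half-sites, each line reads 5′ to 3′ on the gene's strand, and a match describes letters, not binding.
Cdkn1a, chr17:29090896-29090947, + strand: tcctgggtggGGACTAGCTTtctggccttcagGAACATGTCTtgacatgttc
Ccng1, chr11:40755452-40755481, - strand: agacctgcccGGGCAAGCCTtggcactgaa
Mdm2, chr10:117710925-117710954, - strand: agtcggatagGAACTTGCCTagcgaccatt
Bax, chr7:45467080-45467109, - strand: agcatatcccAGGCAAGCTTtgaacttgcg
Sesn1, chr10:41887256-41887285, + strand: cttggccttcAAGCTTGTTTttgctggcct
Ddit4l, chr3:137623572-137623601, + strand: caactcccagGGGCTTGCCTgggcccctgc
Of the 6 members called in PT-like cells, Ddit4l and Sesn1 had a half-site in a window, Btg2 and Plk3 had a window with no match, and Pmaip1 and Trp53inp1 are named without a window.

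Across the kidney, each member had its own pattern of levels. Over the 13 classes 312 pairs of a member and a class could be compared, 12 members in all 13 classes and 1, Eda2r, in none (17 UMIs over all barcodes in PT I-PpoI against 27 in wild type). In 17 of 34 members the class with the highest CPM was the same in both libraries. Cdkn1a was highest in mural (216 CPM in PT I-PpoI against 158 CPM in wild type), macrophage (207 and 163 CPM), endothelium (179 and 134 CPM) and dendritic classes (164 and 176 CPM), and lowest in the thick ascending limb of PT I-PpoI (6.47 CPM) and the connecting tubule of wild type (3.11 CPM, from 3 UMIs). PT-like cells ranked 10 of 13 classes in PT I-PpoI and 12 of 13 in wild type. Btg2 was highest in thin limb (1290 CPM in PT I-PpoI against 1728 CPM in wild type) and macrophage (1216 and 1536 CPM), and PT-like cells had its lowest level in both libraries.

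**Figure D3:**
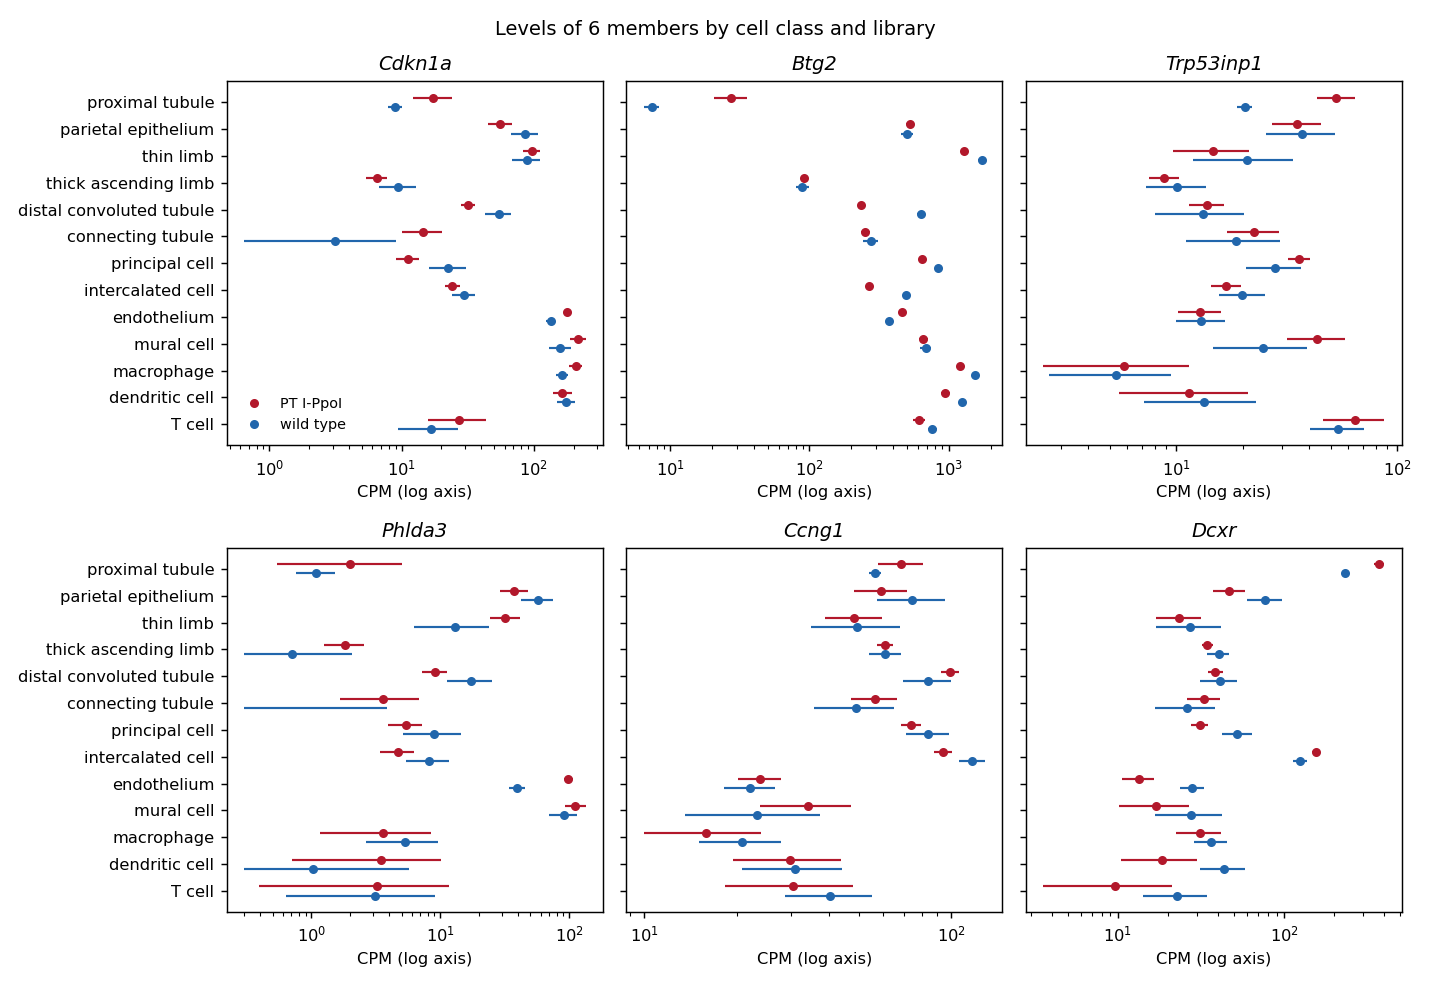
CPM (log axis) of 6 members in 13 cell classes, PT I-PpoI in red above wild type in blue, with exact 95% Poisson intervals from 1 library each. A bar with no point stands for 0 UMIs, and bars end at 0.3 CPM on the left. Cdkn1a and Phlda3 are high in mural and endothelial cells, Dcxr in PT-like cells, and Btg2 is lowest in PT-like cells.

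Other members marked particular compartments. Endothelium had the highest level of Fas (117 CPM in PT I-PpoI against 112 CPM in wild type) and of the kinase Plk2 (140 and 143 CPM). Mural cells had the highest level of Phlda3, an inhibitor of Akt (112 CPM in PT I-PpoI against 90.7 CPM in wild type), and dendritic cells that of Pmaip1 (177 and 146 CPM). Along the nephron, PT-like cells were highest for Dcxr and Dglucy, the distal convoluted tubule for the adenylate kinase Ak1 (86.8 CPM in PT I-PpoI against 54.7 CPM in wild type) and Zmat3, and principal cells for Sesn2 (65.2 and 54.3 CPM) and Ei24. Ccng1 was highest in distal convoluted tubule of PT I-PpoI (99.3 CPM) and in intercalated cells of wild type (117 CPM). Parietal epithelium was highest for Rps27l, Sesn1 and the receptor kinase Epha2. Trp53 was highest in T cells of PT I-PpoI (88.5 CPM) and parietal epithelium of wild type (79.1 CPM), and Trp53inp1 in T cells of both (64.3 and 53.7 CPM). B cells, which were not ranked, had a higher Trp53inp1 level than T cells in both libraries. For Trp53inp1, PT-like cells ranked 2 of 13 classes in PT I-PpoI, against 6 of 13 in wild type. Mdm2 lay between 23.0 and 56.8 CPM in PT I-PpoI, against 19.3 and 44.8 CPM in wild type. After free RNA was subtracted the highest class was another in at least 1 library for Cdkn1a, Bax, Bbc3, Plk3, Aen, Perp and Apaf1.

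Between the libraries, 19 of the 312 pairs were 2-fold or more higher in PT I-PpoI and 12 lower, beside 3.42% and 2.92% of all 111801 pairs of a gene and a class, and 21 members had a call in at least 1 class. No member was called in one direction in more than 3 classes: Plk2 was higher in 3 (macrophage, thin limb and thick ascending limb) and Dcxr lower in 3 (endothelium, dendritic and T cells). Apart from PT, the member medians lay between -0.25 in intercalated cells and 0.26 in T cells, and TMM scaling shifted ratios by -0.18 to 0.12 in these classes.

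**Figure D4:**
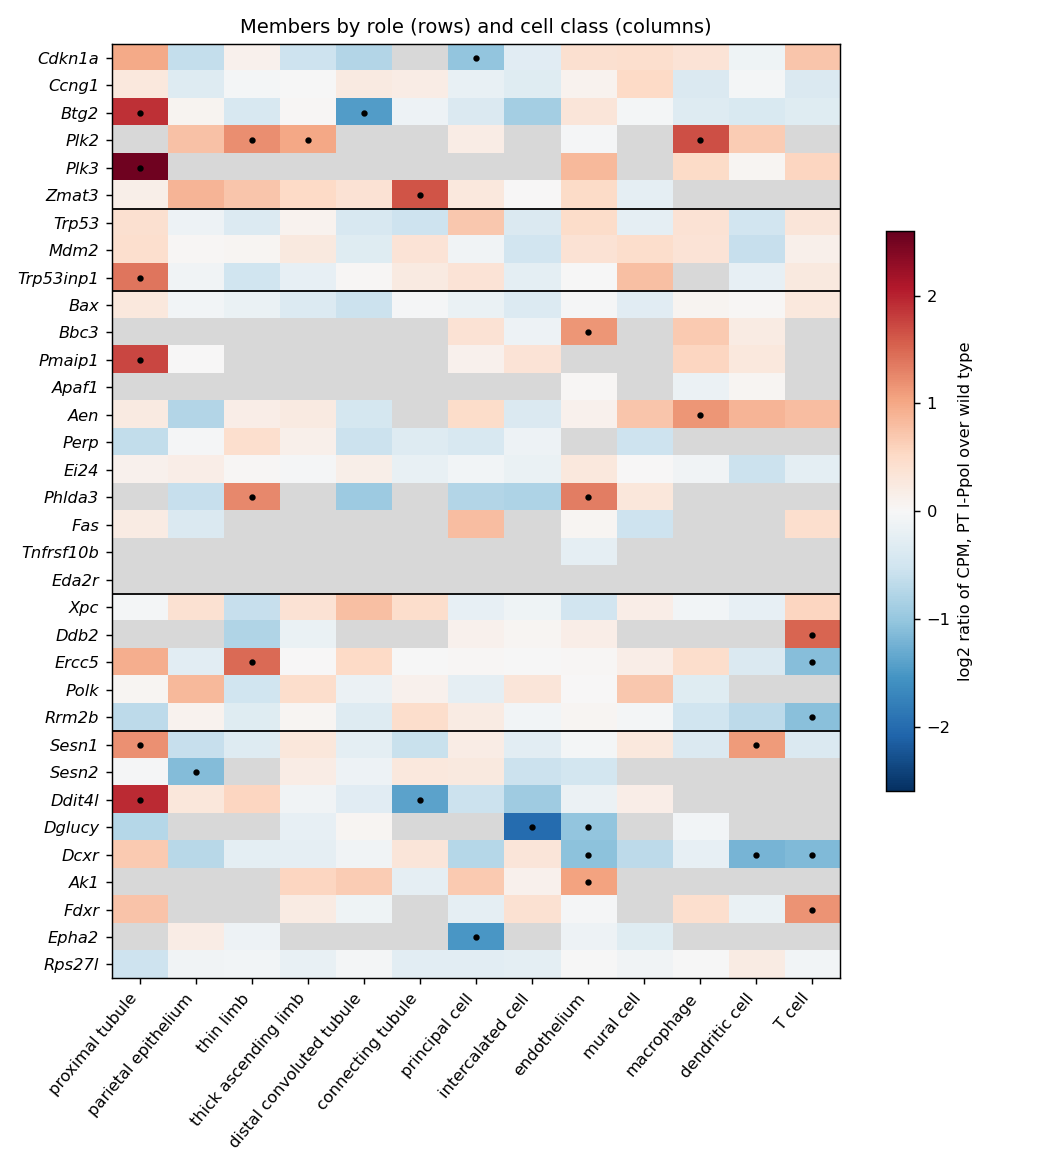
Log2 ratio of CPM, PT I-PpoI over wild type, for each member (rows, in blocks by role from arrest at the top to stress and metabolism at the bottom) in 13 cell classes (columns, 1 library per group). Grey cells were under the minimum and black dots mark differences of 2-fold or more, 6 of which stand in the PT column.

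In endothelium 3 of 31 compared members were higher and 2 lower, beside 6.3% and 4.51% of all genes compared in that class. The largest endothelial cluster held 372 of 757 PT I-PpoI cells and 1385 of 1958 wild-type cells, so the make-up of the class differed between the libraries, and its part in these values was not tested. Phlda3 had 629 UMIs (98.5 CPM) in PT I-PpoI against 196 UMIs (39.1 CPM) in wild type, a ratio of 1.33 (1.10 to 1.57) that came to 0.67 with cells thinned to 2000 UMIs. The proapoptotic BH3-only gene Bbc3 (Puma) had 217 UMIs (33.98 CPM) in PT I-PpoI against 76 UMIs (15.2 CPM) in wild type, a ratio of 1.16 (0.78 to 1.56) that was 0.98 after TMM scaling. Ak1 was at 1.05 (22 and 8 UMIs) and 0.87 after TMM scaling, which left 1 member higher and 2 lower. Dglucy was at -1.02 and Dcxr at -1.07 (13.3 CPM in PT I-PpoI against 28.0 CPM in wild type). Both had their highest level in PT-like cells, free RNA came to 6.997% of PT I-PpoI and 17.6% of wild-type endothelial UMIs, and after its subtraction the Dcxr ratio was 1.56. The member median was 0.03, beside 0.20 for all genes. In the same cells 16 of 23 immediate early and dissociation genes were higher (median 1.46), and Gdf15 of the other p53 targets was at 3.74 (76 UMIs in PT I-PpoI against 4 in wild type). The part of the immediate early and dissociation genes and of free RNA in the member values was not tested.

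In macrophages 2 of 22 compared members were higher and 0 lower (all genes 4.26% and 3.72%). Plk2 had 41.9 CPM in PT I-PpoI against 13.05 CPM in wild type (1.67, 1.00 to 2.40), and Aen had 15.2 and 6.76 CPM (1.15, and 0.96 with doublets kept). Bbc3 (0.68), Pmaip1 (0.56) and Rrm2b (-0.52) were the next furthest from 0, and 9 of 24 immediate early and 7 of 10 cell cycle genes were higher. In dendritic cells, whose cluster also carried the monocyte transcripts Ear2 and Adgre4, 1 of 21 members was higher and 1 lower (5.77% and 2.74%). Sesn1 was at 1.11, with 6 of its 16 PT I-PpoI UMIs in 1 cell and 0.64 without the richest cells, and Dcxr was at -1.21. Aen (0.89), Rrm2b (-0.68) and Plk2 (0.65) followed.

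T cells had 2 of 19 members higher and 3 lower (5.19% and 3.54%), all at low counts. The damaged-DNA binding protein Ddb2 had 15 UMIs in PT I-PpoI against 8 in wild type (1.51, 0.22 to 2.99) and Fdxr had 19 and 13 (1.17, 0.09 to 2.33, and 0.86 as a mean over cells). Rrm2b was at -1.09, Ercc5 at -1.11 and Dcxr at -1.15 (6 UMIs in PT I-PpoI against 22 in wild type), and free RNA, 5.53% of PT I-PpoI and 18.2% of wild-type UMIs by estimate, would take all of the wild-type Dcxr UMIs. In the same cells 13 of 17 compared cell cycle genes were higher (median 1.30). Of 21 immediate early and dissociation genes 8 were higher, among them the chaperones Hspa1a (4.82) and Hspa1b (3.71), and 1 lower. Mural cells had 0 of 22 members higher and 0 lower (3.76% and 2.2%). Trp53inp1 (0.79, 43.6 CPM in PT I-PpoI against 24.7 CPM in wild type), Aen (0.73), Polk (0.71), Dcxr (-0.69) and Perp (-0.54) were furthest from 0 there.

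In the thin limb 3 of 23 members were higher and 0 lower (2.72% and 1.94%). Ercc5 had 34.2 CPM in PT I-PpoI against 11.7 CPM in wild type (1.48, 0.53 to 2.74), Phlda3 had 32.03 and 13.01 CPM (1.24, 0.32 to 2.43) and Plk2 had 34.2 and 14.3 CPM (1.204, 0.32 to 2.33). The Plk2 ratio was 0.57 as a mean over cells, while the other 2 held in every alternative that compared them. Ddb2 (-0.78) and Zmat3 (0.72) came next. In the thick ascending limb Plk2 alone reached the limit (1.00, 188 UMIs in PT I-PpoI against 21 in wild type), making 1 of 25 higher and 0 lower (1.25% and 2.46%). The ratio was 0.94 after TMM scaling, which left 0 calls, and 0.32 with a mitochondrial limit of 30%, in a class whose median mitochondrial share was 31.5% in PT I-PpoI, against 31.7% in wild type. Ak1 (0.57), Cdkn1a (-0.55), Zmat3 (0.52) and Polk (0.45) followed. Most PT I-PpoI cells of this class (818 of 1408) lay in a deep cluster and most wild-type cells (630 of 936) in a shallow one.

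In the distal convoluted tubule 0 of 24 members were higher and 1 lower (1.45% and 2.85%). Btg2 had 2024 UMIs (233 CPM) in PT I-PpoI against 962 UMIs (634 CPM) in wild type, a ratio of -1.45 (-1.56 to -1.34) and of -0.70 as a mean over cells. The immediate early and dissociation list went the same way there, with 2 of 23 genes higher and 14 lower. Its summed level was 2320 CPM in PT I-PpoI against 5395 CPM in wild type. Its part in the Btg2 value was not tested. Phlda3 (-0.94), Xpc (0.79), Cdkn1a (-0.77, 32.0 CPM in PT I-PpoI against 54.1 CPM in wild type) and Ak1 (0.66) followed.

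In the connecting tubule 1 of 19 members was higher and 1 lower (2.2% and 1.92%). Zmat3 had 20.9 CPM in PT I-PpoI against 6.23 CPM in wild type (1.64, 0.53 to 3.26). Ddit4l had 202 UMIs (81.1 CPM) in PT I-PpoI against 205 UMIs (213 CPM) in wild type (-1.39, -1.68 to -1.10, and -0.85 as a mean over cells). Sesn1 (-0.59), Trp53 (-0.53) and Xpc (0.47) were next. In principal cells 0 of 29 were higher and 2 lower (1.36% and 2.7%). Epha2 had 3.78 CPM in PT I-PpoI against 10.6 CPM in wild type (-1.51, -2.35 to -0.60, and -0.90 with libraries clustered separately). Cdkn1a had 11.1 CPM in PT I-PpoI against 22.4 CPM in wild type (-1.02, -1.56 to -0.44). It was -0.93 without its richest cells, -0.31 with libraries clustered separately and short of 2-fold after TMM scaling. Fas (0.79), Phlda3 (-0.76) and Dcxr (-0.75) followed.

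Intercalated cells had 0 of 27 members higher and 1 lower (0.965% and 3.91%), with a median of -0.25 (-0.37 to -0.01) beside -0.10 for all genes. Dglucy had 17 UMIs (1.803 CPM) in PT I-PpoI against 26 UMIs (7.30 CPM) in wild type (-2.00, -2.99 to -1.08), followed by Ddit4l (-0.93), Btg2 (-0.88), Phlda3 (-0.81) and Sesn2 (-0.56). In parietal epithelium 0 of 25 were higher and 1 lower (3.09% and 1.78%). Sesn2 had 12.7 CPM in PT I-PpoI against 27.9 CPM in wild type (-1.13, -2.04 to -0.24, and -0.53 as a mean over cells), followed by Zmat3 (0.88), Polk (0.84), Plk2 (0.77) and Aen (-0.77).

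**Figure D5:**
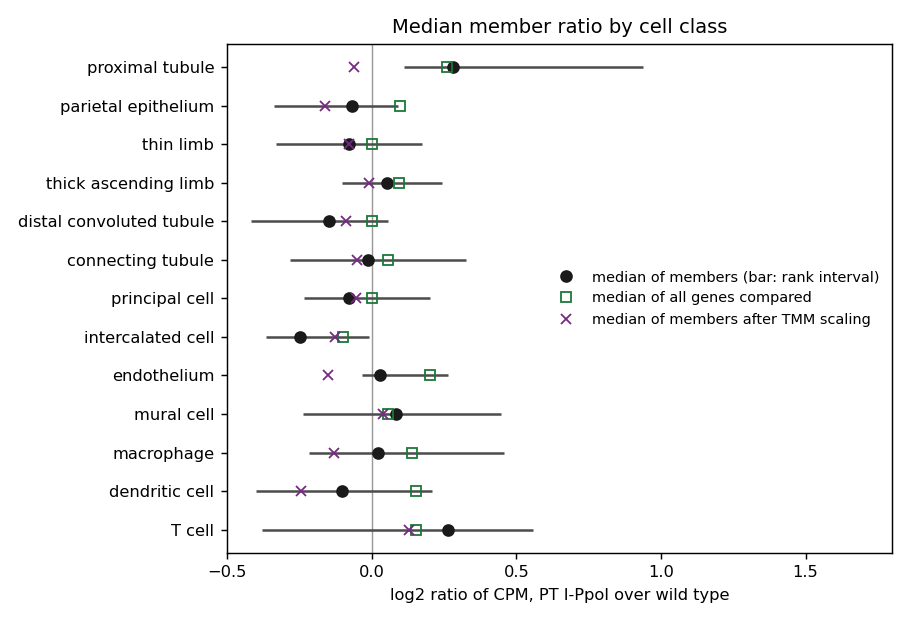
Median log2 ratio, PT I-PpoI over wild type, of the compared members in each of 13 cell classes (filled points, bars are 95% rank intervals over members), the median of all genes compared (open squares) and the member median after TMM scaling (crosses). The PT member median of 0.28 lies beside the all-gene median of 0.26 and moves to -0.06 after scaling.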

How the data were processed

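Raw UMI counts deposited by the authors were used, 1 unfiltered matrix per library, and no reads were processed here. Counting against mm10 with Cell Ranger 3.1 and later steps in Seurat 3 are named per the submitters' processing notes, while the matrices name Cell Ranger 4, per the file headers. 10x 3′ v3.1 chemistry after enzymatic digestion is given per the labels' protocols. Members, roles and lists were chosen with earlier results of these data known.

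Barcodes were called as cells above the UMI count at the 99th percentile of the 3000 deepest divided by 10, or with 500 or more UMIs and a profile unlike ambient RNA (FDR 0.01), with 200 or more genes and up to 50% mitochondrial UMIs. Scrublet removed 81 PT I-PpoI and 275 wild-type doublets. Clustering (scanpy 1.11.5) used 2000 variable genes without members, 30 components and Leiden resolution 1. Clusters were named from 3 or more detected markers. UMIs were summed per class and library, and ratios carry exact conditional binomial intervals, shares Clopper-Pearson and CPM Poisson intervals. TMM factors came from edgeR 4.0.16 with no test run. The ratio step was tested on simulated data. All members compared in PT are named, and up to 5 furthest from 0 in other classes and up to 4 (30 or more UMIs) of other lists. Member medians carry binomial rank intervals over members. Alternatives changed scaling, minimum, cell filters, clustering, free RNA and depth. Added after seeing the data were leaving out the cell of each library richest in each member and weighting wild-type PT clusters.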

Additional observations from a re-analysis of the deposited data

Results flagged for a closer look

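Btg2 differed in opposite directions in 2 classes. Its log2 ratio was 1.905 in PT-like cells (55 UMIs in PT I-PpoI against 236 in wild type) and -1.448 in the distal convoluted tubule (2024 and 962 UMIs). In PT-like cells the free RNA estimate came to 56.2% of the PT I-PpoI and 100% of the wild-type Btg2 UMIs. Ddit4l also differed in opposite directions, with 1.94 in PT-like cells and -1.391 in the connecting tubule (202 and 205 UMIs). In PT-like cells 1 cell held 24 of 34 PT I-PpoI Ddit4l UMIs, and the free RNA estimate came to 100% of the wild-type ones. Both pairs stood out because each ratio passed 2-fold with a counting interval off 0. With 1 library per group the difference between the classes was not tested.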

How the results depend on the processing

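In PT-like cells the count of members higher in PT I-PpoI, 6 as reported, was 1 with cells thinned to 2000 UMIs (7 members then reached the minimum), 3 in the shared cluster or at a minimum of 30 UMIs, 10 with no minimum and 11 with libraries clustered separately, which put 213 PT I-PpoI and 5860 wild-type cells in the class. The count lower, 0 as reported, was 1 in the shared cluster, with no minimum and without the richest cells (chosen after seeing the data). It was 2 after TMM scaling, where the PT median was -0.0618. Shares of all genes called were not worked out for the minimum of 30 UMIs, no minimum, TMM scaling or the class without the richest cells. Counts in those settings therefore have no background. The endothelium median was -0.03539 with free RNA subtracted, -0.1619 without mitochondrial, haemoglobin and rRNA-like genes and -0.1507 after TMM scaling. It was -0.006465 in intercalated cells and 0.2482 in the thin limb as a mean over cells, and -0.2537 in principal cells and 0.2578 in the thin limb with thinned cells. With free RNA subtracted, Dcxr turned to 1.558 in endothelium and 3.548 in T cells, the second set by the prior since 0 wild-type UMIs remained. For the others the cause was not tested. Over all classes and alternatives, 158 class medians and 934 single ratios stayed within their intervals, and 8 medians and 77 single ratios moved outside them. Of the 34 members' cell shares in PT-like PT I-PpoI cells, 28 of 34 lay outside the interval without thinning and 16 of 34 at 1000 UMIs, so shares are stated for 2000 UMIs only. Of the counts of calls, 232 stayed within 1.5 times and 100 did not. Too few cells were left for T cells with doublets kept, and for connecting tubule, dendritic, mural and parietal cells with libraries clustered separately. PT values rest on 166 PT I-PpoI cells and 2824 member UMIs, and the interval of a member such as Cdkn1a, with 35 UMIs, spans 0.41 to 1.47. No paired analysis was possible because each group has 1 library.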

Other observations

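Gdf15, a secreted stress cytokine and p53 target outside the members, was higher in PT I-PpoI in endothelium (log2 ratio 3.74), mural cells (3.22, 47 UMIs in PT I-PpoI against 3 in wild type), thick ascending limb (2.28, 244 and 11 UMIs) and macrophages (1.66, 45 and 21 UMIs), but lower in the distal convoluted tubule (-1.19, 84 and 33 UMIs). Pltp, a phospholipid transfer protein, was at 1.54 in dendritic cells and 1.08 in endothelium. The checkpoint kinase gene Chek2 was the one compared gene upstream of p53 past 2-fold, in principal cells (1.77, 91 UMIs in PT I-PpoI against 5 in wild type) and in intercalated cells (0.99 with the prior, 39 against 7 UMIs).

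Ass1, an enzyme of arginine synthesis that the proximal tubule expresses, was among the named genes in 11 classes and past 2-fold lower in PT I-PpoI in 10 of them, from -4.80 in principal cells (3.32 CPM in PT I-PpoI against 94.0 CPM in wild type) to -1.15 in dendritic cells. Free RNA was estimated at 7.78% of PT I-PpoI and 20.5% of wild-type UMIs in principal cells, and its part in the Ass1 values was not tested.

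Outside the compared classes, Trp53inp1 had 159 UMIs (226 CPM) in 47 PT I-PpoI B cells and 39 UMIs (90.0 CPM) in 141 wild-type B cells, and Cdkn1a had 0 UMIs in podocytes of either library (45 and 18 cells).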
